A study of Mus musculus with 6 samples.

Results

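The genes described here mark cells that a sort for regulatory T (Treg) cells is meant to leave out: 12 B cell genes, 12 genes of monocytes and macrophages, 5 genes of the MHC class II system and 5 dendritic cell genes. The list was chosen by name, with earlier results of these data known, as a check on the purity of the sort. Probe sets were taken where the platform annotation gives exactly 1 gene. Of the 34 genes listed, 33 were measured, by 50 of the 34945 probe sets with 1 gene, and they stand among 18193 measured genes in all. The dendritic cell gene Clec9a was not analysed here. Of the 33 genes, 24 had 1 probe set and 9 had several, which were averaged.

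RNA was prepared from Treg cells that had been neither cultured nor treated, sorted from spleens and lymph nodes of C57BL/6 mice. The cells of both groups were CD4+ and carried human CD2 (hCD2) as a reporter of FoxP3, and they came from FoxP3hCD2.Batf+/+ mice or from FoxP3hCD2.Batf-/- mice, which lack the AP-1 family transcription factor Batf. Each genotype has 3 arrays, numbered 1 to 3. The labels give no age or sex, call the populations triplicates and do not say whether a sample held 1 mouse or several, nor what a number shares between genotypes. P-values therefore reflect how far these arrays differ from one another, part of which may be technical.

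Values are on the log2 scale and each probe set is centred on its middle Batf+/+ array, so 0 stands for that level and not for absence of RNA. How abundant a transcript was, and whether it was detected at all, cannot be read from them, nor can the markers show whether other cells were present. A difference of a gene between arrays can be read. In such bulk samples, fewer cells of a type and less RNA per cell cannot be told apart. The targeted gene followed the labels: Batf lay at -0.13, 0 and 0.14 on Batf+/+ arrays 1, 2 and 3 and at -3.13, -3.16 and -2.37 on Batf-/- arrays 1, 2 and 3. Batf-/- array 3 was thus the least low of its group. Foxp3 lay between -0.16 and 0.04 on all 6 arrays, Cd4 between -0.05 and 0.13 and the T cell receptor chain gene Cd3e between -0.14 and 0.0032. Of the 14 T and Treg cell genes measured, these and Batf among them, 12 were lower in Batf-/- cells, beside 8761 of all 18193 genes. Their median log2 difference was -0.11, beside 0.0047 for all genes. The arrays of the genotypes did not overlap in 7 of the 14, beside 12% of all genes. Batf was the 1 gene of the 14 called by limma at an adjusted p below 0.05 in the reported fit. Ikzf2, named after its calls were seen, was also called lower with the median of probe sets and with array weights.

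B cells recognise antigen through a surface immunoglobulin whose signal is passed on by the chains encoded by Cd79a and Cd79b, and their identity is set by transcription factors such as Pax5 and Ebf1. Monocytes, macrophages and dendritic cells take up material, sense microbes and present peptides. MHC class II molecules are heterodimers of an alpha and a beta chain. Among the members, H2-Aa and H2-Ab1 encode such a pair, and H2-Eb1 encodes the beta chain of another. Whether that other pair formed in these mice cannot be read from H2-Eb1 RNA. The invariant chain, encoded by Cd74, guides class II molecules to the compartment where peptide is loaded. B cells, dendritic cells and macrophages carry these molecules, while resting mouse T cells make little or none. In the mouse spleen some dendritic cells also carry CD4. Transcription of the class II genes depends on the coactivator Ciita, which is brought to their promoters by factors bound to an X box and, further downstream, to a Y box, an inverted CCAAT element.

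The promoters of 2 class II genes are shown because both carry the paired letters marked below. Both genes are described array by array further on, and neither was called in any comparison with all arrays. Each is the stretch of 250 bases before the annotated start, in RefSeq's GRCm38.p6, at chr17:34287824-34288073 on the minus strand for H2-Aa and at chr17:34305617-34305866 on the plus strand for H2-Eb1. Capitals mark the letters GCAACT and, further downstream, GATTGG, which holds the inverted CCAAT.
H2-Aa: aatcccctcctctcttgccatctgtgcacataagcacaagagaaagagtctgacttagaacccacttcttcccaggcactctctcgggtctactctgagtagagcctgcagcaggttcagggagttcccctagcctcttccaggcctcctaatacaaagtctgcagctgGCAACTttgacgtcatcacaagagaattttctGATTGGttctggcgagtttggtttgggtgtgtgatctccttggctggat
H2-Eb1: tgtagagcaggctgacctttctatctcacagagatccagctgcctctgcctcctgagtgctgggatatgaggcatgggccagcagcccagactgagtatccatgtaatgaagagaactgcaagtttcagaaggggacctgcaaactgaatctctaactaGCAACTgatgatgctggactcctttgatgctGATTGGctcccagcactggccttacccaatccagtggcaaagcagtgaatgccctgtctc
In H2-Aa the 2 motifs begin 81 and 49 bases before the start and are 26 bases apart. In H2-Eb1 they begin 91 and 60 bases before it and are 25 bases apart. The motifs were chosen after the sequences were read, and both strands were searched. GATTGG was found in 14.6% of all 32851 promoters of that length, GCAACT in 9.01%, and GCAACT followed by GATTGG after 20 to 30 bases in 0.0517%. Of the 23 members with a promoter in the table, H2-Aa and H2-Eb1 held the pair. A match describes these letters only and is not evidence of binding.

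No member differed between the genotypes past the threshold. Between Batf-/- and Batf+/+ Treg cells 0 of the 33 genes were called by limma at an adjusted p below 0.05, where 1.14% of all genes were called (0.313% higher and 0.83% lower in Batf-/- cells), and 5 of the 33 had an unadjusted p below 0.05, where 7.69% of all genes did. None of the 50 single probe sets was called either, beside 0.713% of all probe sets, and the smallest adjusted p among them was 0.398. The difference was above 0 in 22 members and below 0 in 11, with a median of 0.08 on the log2 scale, beside 0.0047 for all genes. Apart from Cd22, Mpeg1 and H2-Eb1, the other 30 members lay between -0.30 and 0.27. The 95% interval of the difference lay within 1 log2 unit of 0, that is within 2-fold, in 30 of the 33.

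**Figure D1:**
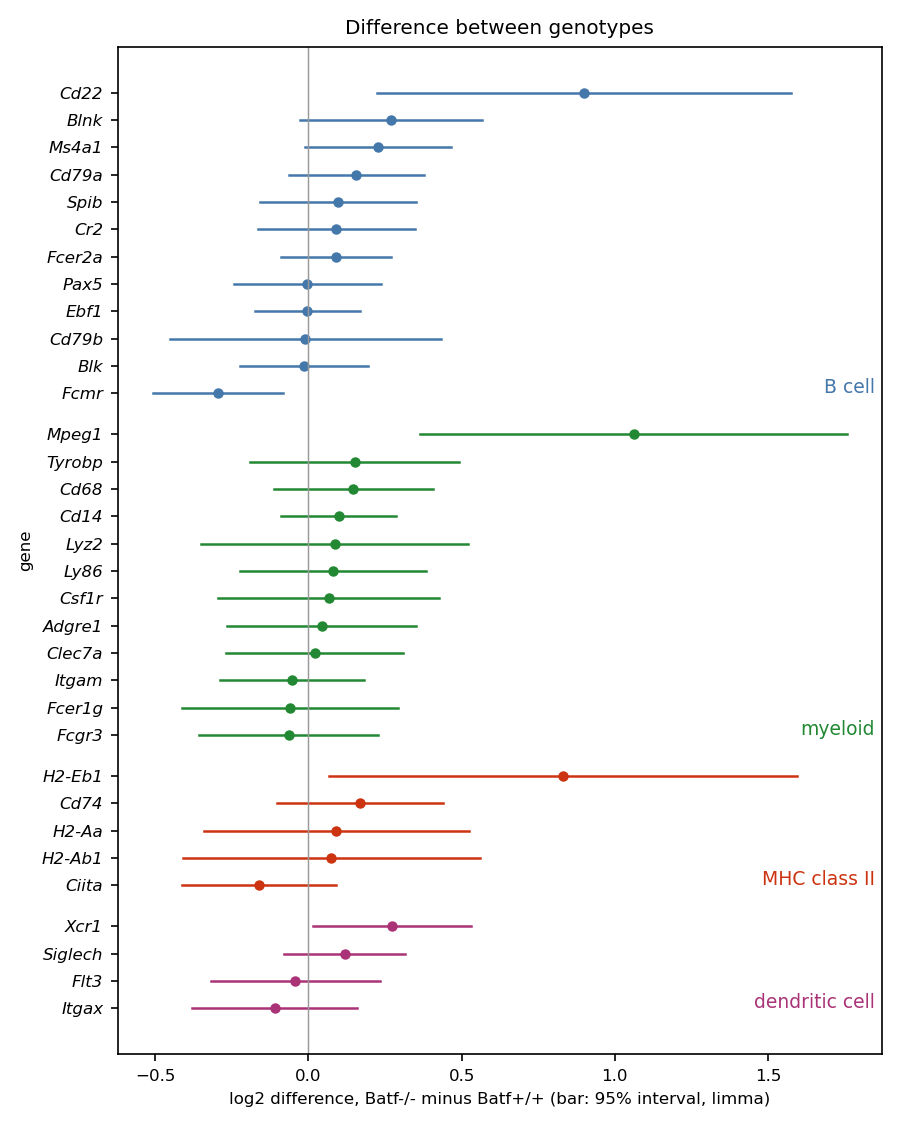
Log2 difference between genotypes (x axis, Batf-/- minus Batf+/+) for the 33 genes (y axis), grouped by cell type. Points are limma estimates from 3 arrays per genotype and bars are 95% intervals. Cd22, Mpeg1 and H2-Eb1 lie to the right with the widest intervals of their groups, and 30 of the 33 intervals stay between -1 and 1.

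Among the 12 B cell genes, Cd22 had the largest difference. Cd22 encodes an inhibitory receptor that dampens B cell receptor signals. It lay at -0.0041, 0 and 0.02 on the Batf+/+ arrays and at 0.52, 0.43 and 1.76 on Batf-/- arrays 1, 2 and 3, so the groups did not overlap and Batf-/- array 3 stood far above the other 2. The log2 difference was 0.90 ± 0.30 (SE, n = 3 arrays per genotype), or 1.86-fold, with a limma adjusted p of 0.374. Without Batf-/- array 3 it was 0.47 and passed the threshold (adjusted p = 0.0461). Over all other settings its adjusted p ran from 0.183 to 0.681. Both probe sets of Cd22 were higher in Batf-/- cells, by 0.73 and 1.07.

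Fcmr, which encodes a receptor for the Fc part of IgM, went the other way. Its values were 0.01, 0 and -0.13 on the Batf+/+ arrays and -0.27, -0.50 and -0.24 on the Batf-/- arrays. These groups did not overlap either, and the log2 difference was -0.30 ± 0.09 (SE, limma adjusted p = 0.329). Blnk, an adaptor downstream of the B cell receptor, overlapped between genotypes, with -0.03, 0 and 0.34 on the Batf+/+ arrays against 0.32, 0.20 and 0.60 on the Batf-/- arrays. Its difference was 0.27 ± 0.13 (SE, limma adjusted p = 0.737).

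The remaining 9 B cell genes, among them the transcription factor genes Pax5, Ebf1 and Spib, the kinase gene Blk and the surface receptor genes Ms4a1, Cr2 and Fcer2a, had differences from -0.01 to 0.23. Pax5 and Ebf1, which define the lineage, each had a difference of -0.0035, averaged over probe sets of either sign. The 2 probe sets of Pax5 gave -0.08 and 0.07, and the 5 of Ebf1 ran from -0.11 to 0.12. For Pax5 the 95% interval ran from -0.24 to 0.24 and for Ebf1 from -0.17 to 0.17. Cd79a, of the receptor complex itself, had a difference of 0.16 and its partner Cd79b one of -0.0099. Over the 12 B cell genes the median was 0.09. Omitting Batf+/+ array 1 gave 0.02, omitting Batf-/- array 3 gave 0.03 and omitting Batf-/- array 1 gave 0.14, while quantile normalization gave 0.06.

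Of the 12 monocyte and macrophage genes, Mpeg1, which encodes the pore-forming protein perforin-2, differed most. Its Batf+/+ values were -0.55, 0 and 0.01 and its Batf-/- values 0.84, 0.20 and 1.61. The groups did not overlap, although Batf+/+ array 1 and Batf-/- array 3 lay far from the rest of their groups. The difference was 1.06 ± 0.31 (SE), or 2.09-fold, with a limma adjusted p of 0.262, the smallest among the 33 genes in this comparison. Mpeg1 is transcribed in other lymphoid cells too and was measured by 1 probe set.

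Tyrobp, which encodes the signalling adaptor DAP12, lay at 0, -0.07 and 0.44 on the Batf+/+ arrays and at 0.16, 0.15 and 0.51 on the Batf-/- arrays, which overlapped. Its difference was 0.15 ± 0.15 (SE, limma adjusted p = 0.990). Cd68, a lysosomal glycoprotein of macrophages, lay at 0.31, 0 and -0.0069 against 0.17, 0.14 and 0.43, again with overlap, and differed by 0.15 ± 0.11 (SE, limma adjusted p = 0.955). The other 9, the lysozyme gene Lyz2, the growth factor receptor gene Csf1r, the endotoxin co-receptor gene Cd14, the integrin chain gene Itgam, the Fc receptor genes Fcgr3 and Fcer1g, the F4/80 gene Adgre1, the beta-glucan receptor gene Clec7a and Ly86, had differences from -0.06 to 0.10. The median of the 12 was 0.07. Its sign turned when Batf+/+ array 1 (-0.02) or Batf-/- array 3 (-0.05) was left out, and it was 0.12 on omitting Batf+/+ array 3 and 0.17 on omitting Batf-/- array 1.

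Among the class II genes H2-Eb1 had the largest difference between genotypes. Its values were -0.17, 0 and 0.03 on the Batf+/+ arrays and 0.26, 0.33 and 1.76 on the Batf-/- arrays, without overlap. Batf-/- array 3 was again the outstanding one. The difference was 0.83 ± 0.34 (SE), or 1.78-fold, with a limma adjusted p of 0.563. Without Batf-/- array 3 it was 0.34 (adjusted p = 0.260).

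H2-Aa and H2-Ab1, which encode the other pair, did not follow that size. H2-Aa differed by 0.09 ± 0.19 and H2-Ab1 by 0.08 ± 0.21 (SE), and their groups overlapped. The 4 probe sets of H2-Aa ran from -0.10 to 0.32. Cd74 lay at 0, 0.21 and -0.03 on the Batf+/+ arrays and at 0.15, 0.06 and 0.47 on the Batf-/- arrays, with a difference of 0.17 ± 0.12 (SE, adjusted p = 0.924). Ciita, the coactivator, lay at -0.03, -0.07 and 0.03 against -0.44, -0.07 and -0.04, with a difference of -0.16 ± 0.11 (SE, adjusted p = 0.919). The median of the 5 class II genes was 0.09. Leaving out Batf-/- array 3 gave -0.14, leaving out any other single array gave 0.0035 to 0.23, and quantile normalization gave 0.03. Probe sets with the suffix _s_at or _x_at, which can mark shared sequence, or _a_at, for alternative transcripts, were also left out. This drops Cd74, H2-Aa and H2-Ab1 and gave 0.34. That value rests on H2-Eb1 (0.83) and on the Ciita probe sets without such a suffix (-0.19 and -0.11), which differ in sign from H2-Eb1.

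Of the 4 dendritic cell genes measured, 2 had positive and 2 negative differences. Xcr1, the chemokine receptor of cross-presenting dendritic cells, lay at -0.25, 0 and 0.15 on the Batf+/+ arrays and at 0.23, 0.13 and 0.36 on the Batf-/- arrays. The groups overlapped between Batf+/+ array 3 and Batf-/- array 2, and the difference was 0.27 ± 0.11 (SE, limma adjusted p = 0.589). Siglech, a lectin of plasmacytoid dendritic cells, lay at -0.18, 0 and 0.04 against -0.01, 0.14 and 0.08, also with overlap. It differed by 0.12 ± 0.09, Flt3, a growth factor receptor of dendritic cell precursors, by -0.04 ± 0.12, and Itgax, the CD11c integrin chain gene, by -0.11 ± 0.12 (SE), and the smallest of their limma adjusted p-values was 0.935. In all, the arrays of the genotypes did not overlap in 4 of the 33 genes, beside 12% of all genes, and they did not overlap and were higher in Batf-/- cells in 3 of the 33, beside 5.5% of all genes.

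The highest value of a member was usually on a single array. Batf-/- array 3 held the highest of the 6 values in 23 of the 33 genes and the lowest in 0, whereas 22.2% of all genes had their highest value there. It was the highest array for 10 of the 12 monocyte and macrophage genes, 8 of the 12 B cell genes, 4 of the 5 class II genes and 1 of the 4 dendritic cell genes. Batf+/+ array 1 held the lowest value in 16 members and Batf-/- array 1 in 8, beside 4136 and 4290 of all 18193 genes. The 8 are thus near the share of all genes. The members' median was 0.19 on Batf-/- array 3, -0.04 and 0.06 on Batf-/- arrays 1 and 2, and -0.07, 0 and 0.04 on Batf+/+ arrays 1, 2 and 3, while the median of all genes stayed between -0.03 and 0.02.

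**Figure D2:**
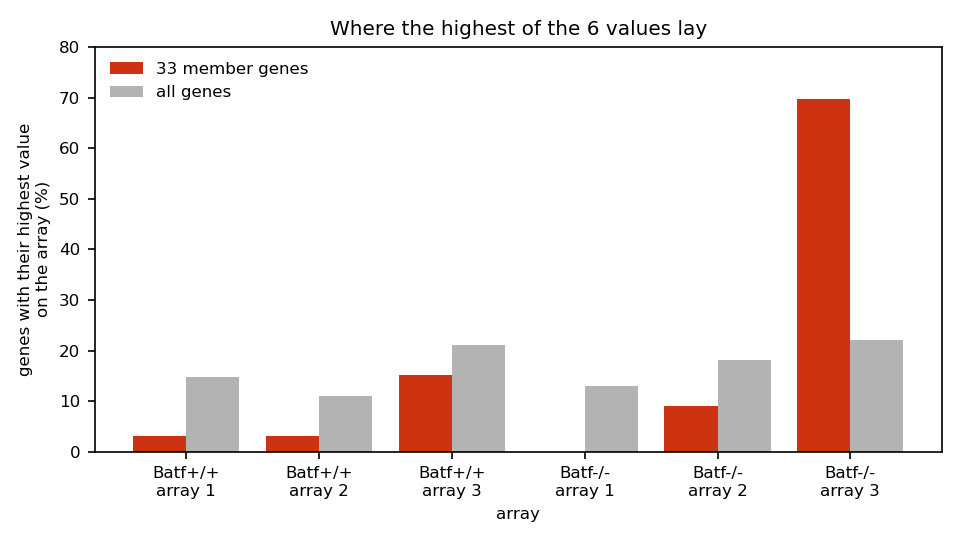
Share of genes (y axis, percent) whose highest of the 6 values was on each array (x axis), for the 33 genes (red) and all 18193 genes (grey). Batf-/- array 3 holds 69.7% of the 33 genes and 22.2% of all genes.

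Arrays numbered 3 were then compared with the other 4, with genotype in the fit. This number was singled out with earlier results of these data known. Nearly every member was higher on the arrays numbered 3, but none passed the threshold: 0 of the 33 were called by limma at an adjusted p below 0.05, where 0.214% of all genes were called, 0.022% higher and 0.192% lower. Of their 50 probe sets 0 were called, beside 0.0401% of all probe sets, with a smallest adjusted p of 0.0628. At an unadjusted p below 0.05 there were 16 members, all of them higher, where 13.8% of all genes passed and 8.61% were higher. The difference was above 0 in 31 of the 33 members, beside 61.1% of all genes, and its median was 0.23, beside 0.04 for all genes. Without Cd22, Mpeg1 and H2-Eb1 it was above 0 in 28 of 30 members, with a median of 0.19.

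Array 3 was the highest array within each genotype for 21 of the 33 members, beside 22.4% of all genes. It was so for 10 of the 12 monocyte and macrophage genes, 6 of the 12 B cell genes, 4 of the 5 class II genes and 1 of the 4 dendritic cell genes. In Batf+/+ cells alone, array 3 lay above the mean of arrays 1 and 2 in 26 members, with a median of 0.17. In Batf-/- cells it did so in 29 members, with a median of 0.26. For all genes these shares were 58.8% and 58.2%, and both medians were 0.03.

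**Figure D3:**
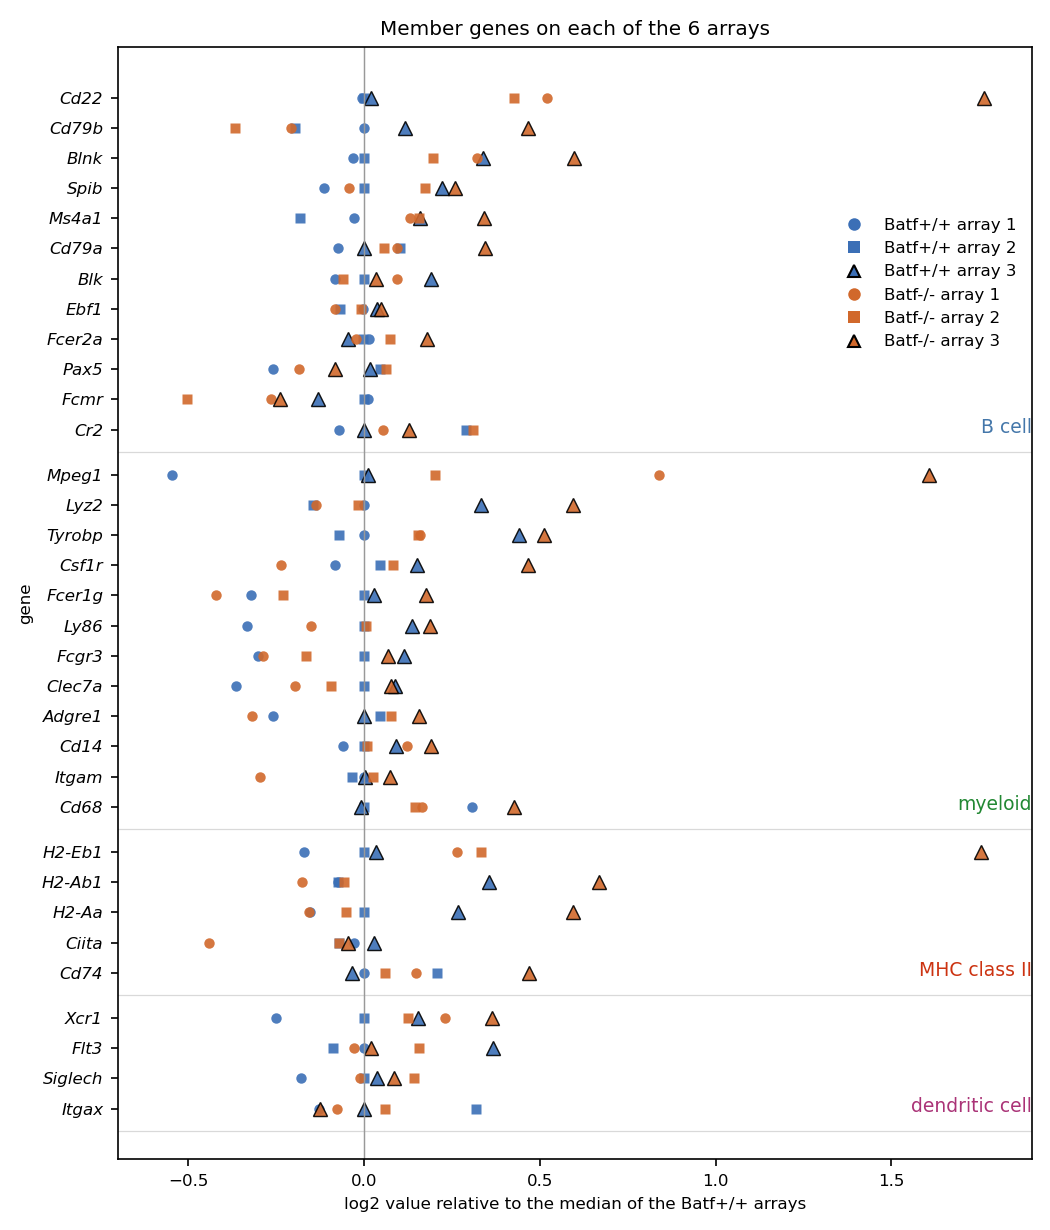
Log2 value relative to the Batf+/+ median (x axis) of the 33 genes (y axis) on each array, with Batf+/+ arrays in blue, Batf-/- arrays in orange and the arrays numbered 3 as outlined triangles. Within each cell type genes are ordered by the difference of number 3. The triangles lie to the right of the other symbols of their genotype for 21 genes, and the orange triangle is the highest of all for 23.

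**Figure D4:**
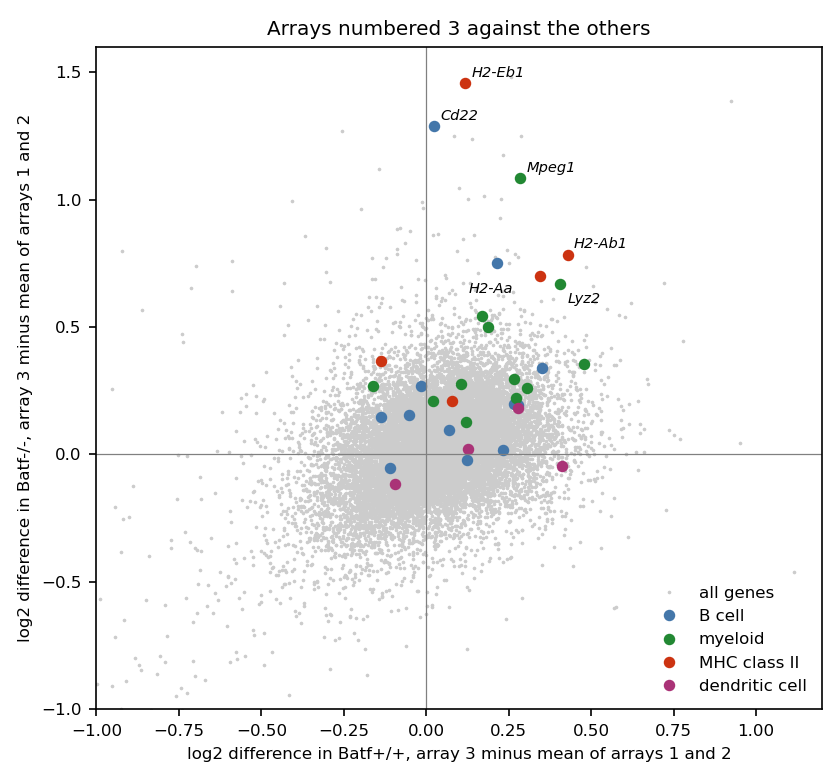
Log2 difference of array 3 from the mean of arrays 1 and 2 within Batf+/+ cells (x axis) and within Batf-/- cells (y axis), for all genes (grey) and the 33 genes (colours by cell type). Most coloured points lie above 0 on both axes, with H2-Eb1, Cd22 and Mpeg1 the highest on the Batf-/- axis, and 38 genes fall outside the axes.

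The 5 class II genes had a median difference of number 3 of 0.52, with 0.12 in Batf+/+ cells and 0.70 in Batf-/- cells. In Batf+/+ cells that median lay below those of the monocyte and macrophage genes (0.23) and the dendritic cell genes (0.20). H2-Ab1 lay at -0.07, -0.07 and 0.36 on Batf+/+ arrays 1, 2 and 3 and at -0.18, -0.06 and 0.67 on Batf-/- arrays 1, 2 and 3, so array 3 was the highest in both genotypes. The difference of number 3 was 0.61 ± 0.10 (SE, 2 arrays against 4), or 1.52-fold, with a limma adjusted p of 0.0823, the smallest among the 33 genes. H2-Aa followed the same order, with -0.15, 0 and 0.27 on the Batf+/+ arrays and -0.16, -0.05 and 0.59 on the Batf-/- arrays. Its difference was 0.52 ± 0.10 (SE, limma adjusted p = 0.160).

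H2-Eb1 had the largest difference of number 3 among all members, 0.79 ± 0.26 (SE, limma adjusted p = 0.304). It came almost wholly from Batf-/- cells, where array 3 exceeded the mean of arrays 1 and 2 by 1.46, against 0.12 in Batf+/+ cells. Cd74 was the highest on Batf-/- array 3 and the lowest on Batf+/+ array 3, and its difference was 0.11 ± 0.12 (SE, adjusted p = 0.714). For Ciita it was 0.15 ± 0.11 (adjusted p = 0.588).

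All 3 probe sets of H2-Ab1 and all 4 of H2-Aa were higher on array 3 than on arrays 1 and 2 in both genotypes. Their differences ran from 0.32 to 0.88 for H2-Ab1 and from 0.16 to 1.13 for H2-Aa. Of these 7 probe sets, 6 have a suffix (_s_at or _x_at) for probes that may match transcripts of other genes, so that related class II genes may add to their signal. The other one, of H2-Ab1, has the suffix _a_at, for alternative transcripts of 1 gene. The single probe set of H2-Eb1 has no such suffix.

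**Figure D5:**
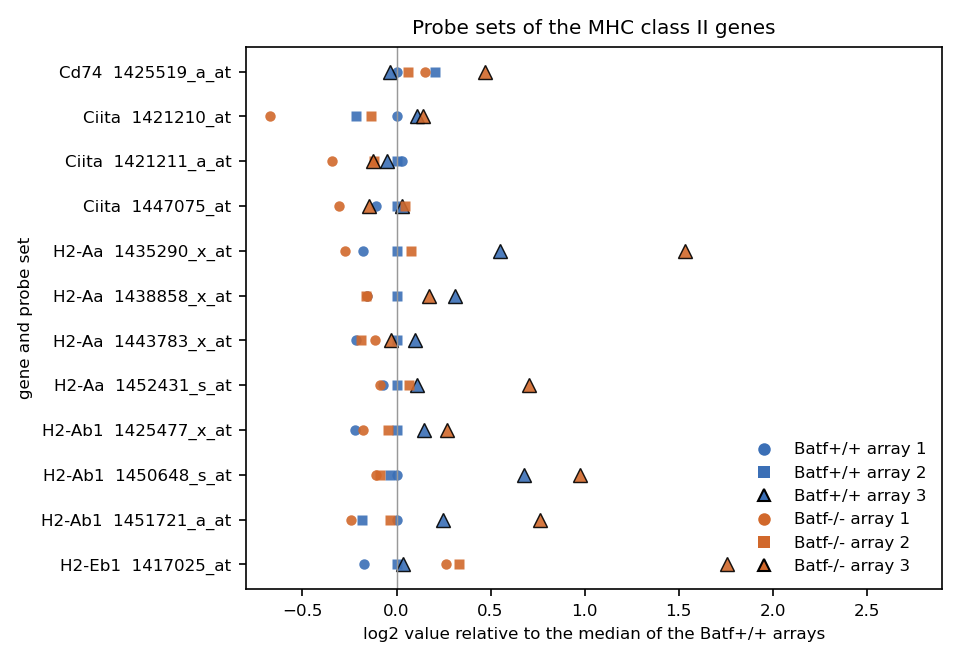
Log2 value relative to the Batf+/+ median (x axis) of each probe set of the 5 class II genes (y axis) on each array, with Batf+/+ in blue, Batf-/- in orange and arrays numbered 3 as outlined triangles. Both triangles lie to the right of the other symbols of their genotype in all 7 probe sets of H2-Aa and H2-Ab1. The same holds for H2-Eb1 and for 1 of the 3 Ciita probe sets. For Cd74 the Batf+/+ triangle lies to the left of its group and the Batf-/- triangle to the right. In the other 2 Ciita probe sets the Batf-/- triangle lies among its group.

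All 12 monocyte and macrophage genes had a difference of number 3 above 0, from 0.06 to 0.68, with a median of 0.28. Lyz2, the lysozyme of macrophages, lay at 0, -0.15 and 0.33 on the Batf+/+ arrays and at -0.14, -0.02 and 0.59 on the Batf-/- arrays. Both arrays numbered 3 were above the other 4, and the difference was 0.54 ± 0.09 (SE), or 1.45-fold, with a limma adjusted p of 0.110. Tyrobp, whose values are given above, had both arrays numbered 3 above the other 4 as well, with a difference of 0.42 ± 0.07 (SE, adjusted p = 0.110).

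Mpeg1 had the largest difference of number 3 in this group, 0.68 ± 0.25 (SE, limma adjusted p = 0.317), with 0.28 in Batf+/+ and 1.09 in Batf-/- cells. The differences of Csf1r, Fcer1g, Ly86, Fcgr3 and Clec7a ran from 0.25 to 0.36, and those of Adgre1, Cd14, Itgam and Cd68 from 0.06 to 0.19. The 3 probe sets of Csf1r ranged from 0.05 to 0.70.

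Of the 12 B cell genes 11 were above 0, with a median of 0.13. Cd22 had a difference of 0.66 ± 0.24 (SE, limma adjusted p = 0.322), made of 0.02 in Batf+/+ cells and 1.29 in Batf-/- cells. Cd79b lay at 0, -0.20 and 0.12 on the Batf+/+ arrays and at -0.21, -0.37 and 0.47 on the Batf-/- arrays, with array 3 the highest in each. Its difference was 0.48 ± 0.13 (SE, adjusted p = 0.249). Blnk had one of 0.35 ± 0.07 (SE, adjusted p = 0.186), with similar values in Batf+/+ cells (0.35) and Batf-/- cells (0.34).

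Spib (0.24) and the CD20 gene Ms4a1 (0.23) were the next of the B cell genes, and the 2 probe sets of Ms4a1 gave 0.03 and 0.44. The lineage factor genes Ebf1 and Pax5 had differences of 0.08 and 0.05, and Cd79a one of 0.13, although Cd79b, its partner in the same receptor, had 0.48. Cr2, a complement receptor gene, was the B cell gene below 0 (-0.08). Of the dendritic cell genes, Xcr1 had a difference of 0.23 ± 0.09 (SE, limma adjusted p = 0.340) and Siglech one of 0.07. Flt3 lay at 0, -0.09 and 0.37 on the Batf+/+ arrays and at -0.03, 0.16 and 0.02 on the Batf-/- arrays, with a difference of 0.18 ± 0.12 (SE, adjusted p = 0.519). Itgax lay at -0.13, 0.32 and 0 against -0.08, 0.06 and -0.13, with a difference of -0.11 ± 0.12 (SE, adjusted p = 0.733). The median of the 4 was 0.13, and it became -0.01 on omitting Batf+/+ array 3 and 0.20 on omitting Batf-/- array 3.

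Whether the difference of number 3 depended on genotype was tested by the interaction. It passed for 0 of the 33 members by limma, with an unadjusted p below 0.05 for 5 of them, beside 3.4% of all genes, and 0% of all genes were called. The largest estimates were those of H2-Eb1, 1.34 ± 0.17 (SE), and Cd22, 1.27 ± 0.15 (SE), both with an adjusted p of 0.598. Without Batf+/+ array 3 the comparison of number 3 rests on Batf-/- array 3 alone, the array already seen to be far above the rest for these genes, and its spread is assumed to be that of the other arrays. The differences were then 1.29 for Cd22 and 1.46 for H2-Eb1, each with an adjusted p of 0.0486, which has no replicate behind it on the side of number 3. Without Batf-/- array 3 the values were 0.02 for Cd22 and 0.12 for H2-Eb1.

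Of the 39 genes called in the comparison of number 3 over all genes, 35 were lower and 4 higher. The lower ones included 4 genes that belong to no list here and are named after their values were seen: Fosb had a log2 difference of -2.19, Dusp1 one of -1.07, Junb one of -0.95 and Nr4a1 one of -0.93. On Batf+/+ array 3 and Batf-/- array 3 Junb lay at -0.93 and -0.94, and on the other 4 arrays between -0.14 and 0.13. For these 4 genes the limma adjusted p ran from 0.0843 to 0.146 after quantile normalization, and from 0.0662 to 0.49 without any 1 of the Batf+/+ arrays or Batf-/- array 3. For Fosb it was also 0.0687 with the median of probe sets and 0.0993 with no genotype term. The part of this difference in the members' values was not tested.

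Further genes of the same cell types followed to different degrees. Among 33 other myeloid genes 30 were above 0 on the arrays numbered 3, beside 61.1% of all genes, with a median of 0.18. Of the 33, 15 had an unadjusted limma p below 0.05, 14 of them higher, where 13.8% of all genes passed and 8.61% were higher. Lyz1 rose, at -0.04, -0.10 and 0.86 on the Batf+/+ arrays and -0.28, -0.32 and 1.09 on the Batf-/- arrays. Its difference was 1.16 ± 0.11 (SE, limma adjusted p = 0.0170). It was 0.35 (adjusted p = 0.237) without probe sets of shared sequence, and Lyz1 and Lyz2 are near-identical genes whose signals may mix. The adjusted p of Lyz1 was also above the threshold after quantile normalization (0.0606) and without Batf+/+ array 1 (0.0711), Batf+/+ array 2 (0.0914) or Batf-/- array 3 (0.188). C1qa, named after its calls were seen, was called higher with equal array medians and with array weights, but not in the reported fit. Cebpb, named in the same way, was called lower without Batf-/- array 2.

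Among 21 other B cell genes 18 were above 0, with a median of 0.12 (3 at an unadjusted limma p below 0.05). In the other direction 1 was called. This was Cd24a, also present in many other cells, with 0.22, 0.10 and -0.70 on the Batf+/+ arrays and 0.98, 1.19 and 0.24 on the Batf-/- arrays. It fell by 0.86 on the log2 scale (difference -0.86 ± 0.09 SE, adjusted p = 0.0176), and its adjusted p lay between 0.0904 and 0.379 without any 1 of the Batf+/+ arrays or Batf-/- array 3. It was 0.0852 after quantile normalization, 0.125 with the median of probe sets and 0.409 with no genotype term. Among 16 other genes of the class II pathway 9 were above 0, with a median of 0.06 and 0 called (4 at an unadjusted p below 0.05). H2-DMa, a chain of the peptide loading molecule, had a difference of 0.32 ± 0.11 (SE, adjusted p = 0.308) and is named after its value was seen. In that list 7 of the 16 genes were below 0, and differences ran from -0.19 to 0.36. Other dendritic cell genes were above 0 in 12 of 17 cases, with a median of 0.09 (1 at an unadjusted limma p below 0.05). Over all genes 61.1% were above 0, 0.214% were called and 13.8% had an unadjusted limma p below 0.05.

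Markers of further cell types gave 6 of 6 erythroid genes above 0 (median 0.19), 8 of 9 neutrophil genes (0.08), 6 of 7 stromal genes (0.09), 7 of 10 NK cell genes (0.03), 3 of 6 plasma cell genes (-0.01), 3 of 5 platelet genes (0.04) and 1 of 2 CD8 T cell genes (0.03), and 9 of 14 T and Treg cell genes (0.06). None of these was called by limma in the comparison of number 3, where in the same order 1, 2, 0, 1, 0, 0, 0 and 2 of them had an unadjusted p below 0.05. For all genes the shares were 61.1% above 0, 0.214% called and 13.8% at an unadjusted p below 0.05. Cd4, Cd3e and Foxp3 had differences of 0.04, -0.0056 and -0.08.

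Of the 208 genes called between genotypes, all outside the list, those in the other marker lists are given here. Bank1, an adaptor of B cells, rose 1.55-fold in Batf-/- cells. It lay at 0, -0.12 and 0.01 on the Batf+/+ arrays and at 0.59, 0.52 and 0.69 on the Batf-/- arrays, with a difference of 0.64 ± 0.08 (SE, limma adjusted p = 0.00664), and its adjusted p stayed at or below 0.0448 in the 12 other settings. On arrays numbered 3 Bank1 differed by 0.11 (adjusted p = 0.564). Ly6d, a surface protein of B cell progenitors, rose 1.62-fold, with -0.07, 0 and 0.22 against 0.50, 0.75 and 0.98. Its difference was 0.69 ± 0.13 (SE, adjusted p = 0.0449), and its adjusted p ran from 0.0564 to 0.198 without any 1 of the Batf+/+ arrays or Batf-/- arrays 2 or 3. It was 0.14 after quantile normalization and 0.0627 with the median of probe sets. These 2 were the called genes among the 21 other B cell genes, where 1.14% of all genes were called. A difference above 0 was seen in 18 of the 21, beside 51.8% of all genes, with a median of 0.09. Of the 21, 6 had an unadjusted limma p below 0.05, all of them higher, where 7.69% of all genes passed in either direction. The arrays did not overlap and were higher in Batf-/- cells in 6 of the 21, beside 5.5% of all genes. With the number as a replicate block Cd24a rose too, by 0.93 (adjusted p = 0.00407, against 0.305 without the block).

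Of the 33 other myeloid genes, Tlr2, a receptor for bacterial lipoproteins that T cells also carry, fell by 0.49 on the log2 scale (difference -0.49 ± 0.09 SE, limma adjusted p = 0.0422), and its adjusted p lay between 0.0520 and 0.171 when any 1 array was left out, at 0.197 after quantile normalization and at 0.0506 with the median of probe sets. Among 17 other dendritic cell genes Cd83, an activation marker also of T cells, fell 2.48-fold (difference -1.31 ± 0.09 SE, adjusted p = 0.000202), and the costimulatory ligand gene Cd80 rose 1.33-fold (0.41 ± 0.08 SE, adjusted p = 0.0484). For Cd80 the difference was 0.04 without probe sets of shared sequence, and its adjusted p lay between 0.0895 and 0.213 when any 1 array was left out, at 0.24 after quantile normalization and at 0.0615 with the median of probe sets. With the replicate block 3 genes of this list rose, Cd80 and, named after their values were seen, Irf8 and Cd86. Of the 16 other class II pathway genes 0 were called between genotypes, beside 1.14% of all genes. At an unadjusted p below 0.05 there were 0, beside 7.69% of all genes, and their median was -0.02.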

How the data were processed

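Per the submitters' processing notes, the authors used RMA (no version given), and the deposited numbers are read here as log2 values. In all 45101 probe sets the middle Batf+/+ value is exactly 0, so the values were centred before deposit, in a step given by no label used here. Signal over background is unknown, and the number of arrays limits precision. Gene names came from GEO's platform annotation (34945 with 1 gene, 932 with several, 9160 with none listed, 64 controls), and probe sets of a gene were averaged, which gave 18193 genes without a filter on low values.

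Genotypes, and number 3 against the others with genotype as a term, were tested with lmFit and eBayes of limma (3.58.1, under R 4.3.3), and p-values were adjusted by Benjamini-Hochberg over every gene, with 0.05 as the threshold for a call. The fits were tested on simulated data. The members and lists were chosen with earlier results of these data known. Named outside the members are Batf, Foxp3, Cd4, Cd3e and up to 4 called genes of each other list per comparison. H2-DMa, Fosb, Dusp1, Junb, Nr4a1, Irf8, Cd86, Ikzf2, C1qa and Cebpb fall outside this rule and were named after their values or calls were seen. Members with the 3 largest differences of their group are given array by array. The alternatives were quantile normalization, equal array medians, the median of probe sets, only probe sets without a suffix (_s_at, _x_at or _a_at), array weights, leaving out each array, a replicate block and no genotype term. The suffixes _s_at and _x_at can mark shared sequence, and _a_at, left out in the same setting, marks alternative transcripts of a gene. After group means were subtracted, arrays 1, 2 and 3 of one genotype correlated with the same number of the other (r = 0.407, 0.154 and 0.413 over genes, all past the 0.1 required). Over the members alone r was 0.056, 0.087 and 0.208, past 0.1 for array 3 only. From the values over all genes, and not from the labels, the numbers were therefore taken as pairs. This pairing entered the replicate block only, and the reported comparison of genotypes had no term for number.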

Additional observations from a re-analysis of the deposited data

Results flagged for a closer look

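Probe sets that name several genes were outside the comparisons. Of 7 such probe sets that include Igkc (the constant region of the kappa light chain) or Ighm, 3 were higher on a Batf-/- array than on every Batf+/+ array by more than the whole range of the Batf+/+ arrays. All 3 include Igkc, and in each the array was Batf-/- array 3. The first lay at 1.61 there, at -1.25 and -1.41 on Batf-/- arrays 1 and 2, and at 0, 0.24 and -0.61 on Batf+/+ arrays 1, 2 and 3. The second lay at 1.32 on Batf-/- array 3 and between -0.76 and 0.20 on the other 5 arrays. The third lay at 1.16 there and between -0.56 and 0.06 elsewhere. Each names 5 genes. They were chosen after member values were seen, and no test was run on them.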

How the results depend on the processing

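The count of members called between genotypes was 0 with all arrays in every setting, and 0 to 1 when single arrays were left out, the 1 being Cd22 without Batf-/- array 3. For number 3 it was 0 with all arrays in every setting, and 0 to 2 with single arrays left out, the 2 being Cd22 and H2-Eb1 without Batf+/+ array 3, when number 3 is 1 array. The count of all genes called between genotypes was 81 after quantile normalization and 105 to 192 with single arrays left out. For number 3 that count was 1 after quantile normalization, 80 with array weights, 23 with no genotype term and 0 to 55 with single arrays left out (0 without Batf+/+ array 1 or 2, 6 without Batf+/+ array 3, 3 without Batf-/- array 3), from 39. The causes were not tested. Members above 0, a count added after seeing the data, ranged over all settings from 16 to 29 between genotypes (22 as reported) and from 26 to 32 for number 3 (31 as reported). Of 391 values of single members per comparison, 40 between genotypes and 13 for number 3 changed sign, none of them past the threshold in either setting. Without probe sets of the suffixes _s_at, _x_at and _a_at 5 members had no value. With the replicate block 0 members and 293 of all genes were called between genotypes, and the block changed no call among the members (smallest adjusted p = 0.132). The interaction could not be fitted without an array numbered 3.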
